A study of Chlamydomonas reinhardtii with 45 samples.

Results

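The gametolysin and matrix metalloproteinase genes of the green alga Chlamydomonas reinhardtii were taken as every gene whose symbol begins with MMP and a number, or whose description names gametolysin or a matrix metalloproteinase. The rule found 27 of 17609 genes, of which 26 carry an MMP symbol and 1, Cre09.g396772, carries the description alone. The description reads metalloproteinase of the VMP family for 8 genes (MMP4 to MMP11), a family first named in the alga Volvox, and names a matrix metalloproteinase for 18. MMP1 (Cre17.g718500) is described as the gamete lytic enzyme.

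The Chlamydomonas cell wall is a layered coat of hydroxyproline-rich glycoproteins, pherophorins among them, and it is remodelled by secreted proteases. Gametolysin is a zinc metalloproteinase released when gametes of opposite mating type touch, and it digests the walls of both so that the cells can fuse. A different enzyme, the subtilisin-like sporangin encoded by VLE1, frees daughter cells from the mother wall after division. Most other members of the family are known by their sequence only, so their substrates are not stated here.

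Messenger RNA was measured in synchronous cultures of strain CC-5390 (genotype WT in the labels), which the study's methods give as CC-4351, a cw15 mt+ strain, rescued with a cosmid carrying ARG7. All groups share this background, so every library comes from 1 strain of a single mating type with a wall-deficient allele, and no mating partner was present. Populations were acclimated to days of low light (LL, 50 PFD), moderate light (ML, 200 PFD, the control) or high light (HL, 1000 PFD) in photobioreactors, with 12 h of light at 28 °C and 12 h of dark at 18 °C, and LL cultures were first held at ML for a week. Samples were taken at 5 timepoints numbered from the start of the light phase (−2, +2, +6, +10 and −10 h), in 3 experimental replicates each, which gave 15 groups and 45 libraries.

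The values are FPKM, read fragments scaled to transcript length and library size, so levels can be set side by side between genes of different length. Read totals were not given in the table used here. The steps between its lowest values placed the depth of LL replicate 1 at −2 at 0.168 of that of ML replicate 1 at −2, and all other libraries at 0.582 to 1.36 of it. Of 13 gamete markers, GEX1, MTD1, SAG1 and GSM1 stayed under 1 FPKM in every library, and so did 4 of 16 zygote markers. By contrast, 8 gamete markers, NSG genes among them, and 12 zygote markers reached 1 FPKM in at least 3 libraries. Some of these differed from ML, such as NSG1, NSG13 and ZYS4, which increased in LL at +2. The summed zygote markers ran from 86.1 to 554 FPKM over the 45 libraries. The summed gamete markers ran from 100.03 to 1779 FPKM over the 45 libraries, and at +10 ML held 1183 to 1779, LL 589 to 739.7 and HL 804 to 877. Sums over 12 division and replication markers lay between 15.3 and 28.4 FPKM at +2 and between 834 and 2076 FPKM at +10. Replicate 2 of ML at −2 and replicate 3 of ML at −10 stood apart in that sum, at 178 FPKM against 74.6 and 56.8, and at 274 FPKM against 101 and 90.6. In bulk samples such as these, fewer cells of a kind and less RNA per cell cannot be told apart.

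The metalloproteinase mRNAs were spread over the whole day–night cycle, with genes at their highest mean at each of the 5 timepoints. In ML, 11 genes had their highest mean at −10, among them MMP1, MMP13, MMP23, MMP25, MMP29 and MMP33. A further 5 (MMP2, MMP4, MMP6, MMP9 and MMP21) were highest at −2, before dawn, and 4 (MMP7, MMP19, MMP22 and MMP24) were highest at +2. Only MMP5 and MMP15 had their highest mean at +6, and 5 genes (Cre09.g396772, MMP11, MMP14, MMP31 and MMP32) had it at +10. For 11 of the 27 genes, MMP1, MMP8, MMP19 and MMP31 among them, the 3 ML libraries of that timepoint overlapped those of the next highest, and the tallies include MMP10 and MMP24, which were too low to test. The timepoint of the highest mean was that of ML for 21 of 27 genes in LL, for 19 of 27 in HL, and for 17 of 27 in both. In HL 9 genes were highest at +10, against 5 in ML and 5 in LL.

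**Figure D1:**
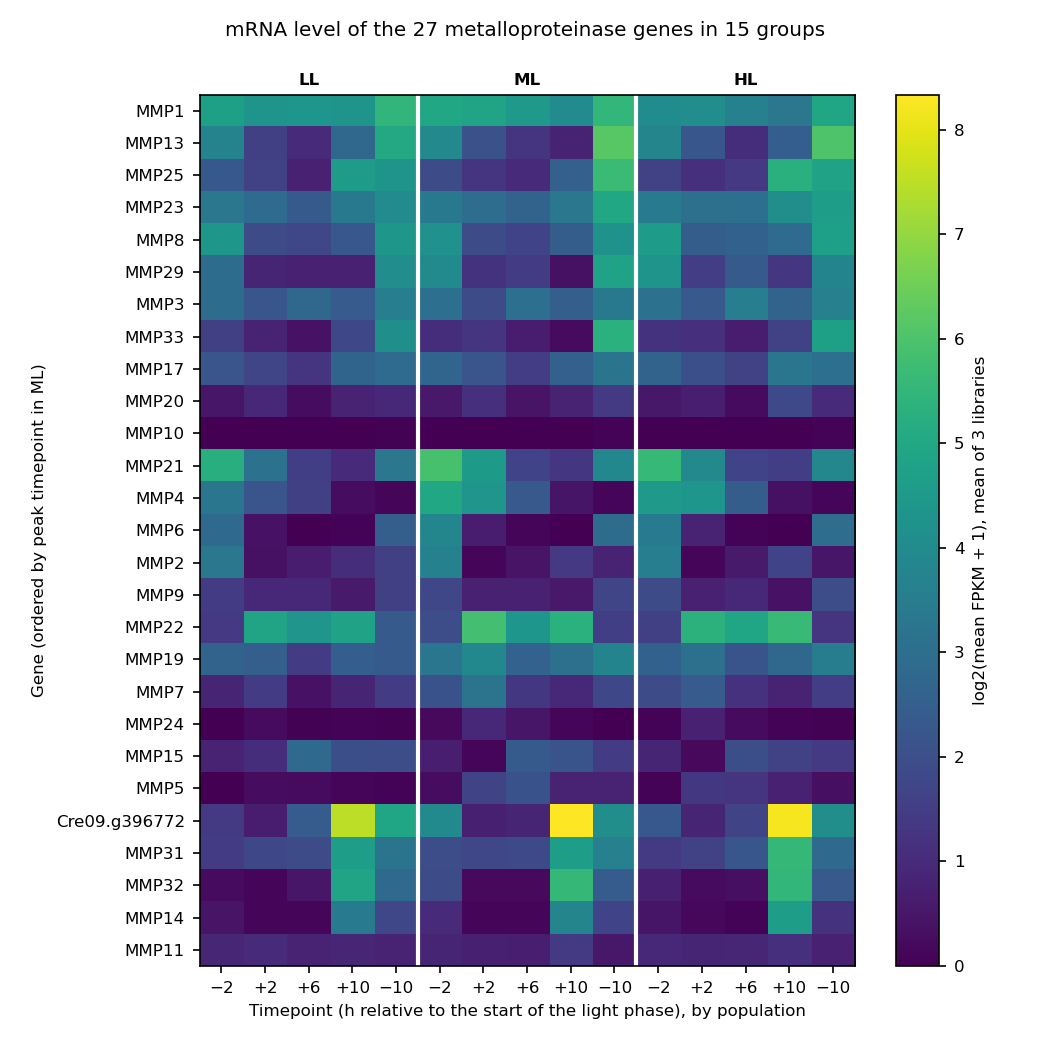
Level of each of the 27 genes, as log2 of the mean FPKM plus 1 over 3 libraries, in LL, ML and HL at the 5 timepoints, with genes ordered by the timepoint of their highest mean in ML. Blocks of genes reach their highest level at −10, −2, +2, +6 and +10 in turn, and 17 of 27 keep that timepoint in both other populations.

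The amplitude of these cycles differed widely between members. In ML the highest mean was 615-fold the lowest for MMP6, 475-fold for Cre09.g396772, 308-fold for MMP32, 293-fold for MMP4 and 204-fold for MMP33. These folds rest on very low lowest means, of 0.0212 FPKM for MMP6, 0.679 for Cre09.g396772, 0.148 for MMP32, 0.107 for MMP4 and 0.192 for MMP33, and are imprecise to that extent. By contrast it was 2.89-fold for MMP1 and 2.68-fold for MMP19, which were present at every hour. A test of any difference between the 5 timepoints (limma F test on log2(FPKM + 1), Benjamini-Hochberg adjusted p below 0.01) passed for 25 of 25 tested genes in ML, 23 of 25 in LL and 24 of 25 in HL. MMP11 missed it in LL and HL, and MMP5 missed it in LL. Of all 14602 genes tested, 96.1% passed in ML, 92.5% in LL and 94.7% in HL, so these shares were near the background. A gene was tested where it reached 1 FPKM in at least 3 libraries, which left out MMP10, listed at 0 in 36 of 45 libraries and never above 0.207 FPKM, and MMP24, which reached 1.18 FPKM in 1 library.

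The summed level of the family was highest late in the light phase. At +10 it was 508 ± 59.5 FPKM in ML (mean ± SD, n = 3), 357 ± 60.5 in LL and 572 ± 7.91 in HL. At +6 it was lowest, at 89.1 ± 6.43 FPKM in ML, 79.0 ± 8.67 in LL and 97.9 ± 9.28 in HL. The peak was largely 1 gene, since Cre09.g396772 gave 63.5% of the ML sum at +10, 50.4% of the LL sum and 52.3% of the HL sum. At −10 the sum was 377 ± 91.1 FPKM in ML and 259 ± 22.5 in LL, where this gene gave 16.3 and 29.2 FPKM. At +10 it gave 322 and 180 FPKM, so the other members together were higher at −10 than at +10 in both. Elsewhere the leading gene changed with the hour: MMP21 led at −2, MMP22 at +2, and MMP13 at −10 in ML and HL. The whole family made up between 0.011% and 0.124% of all FPKM. Over the 45 libraries the highest mean levels were those of Cre09.g396772 (59.5 FPKM), MMP1 (23.3), MMP22 (21.4), MMP21 (15.6), MMP13 (15.4), MMP25 (11.9), MMP23 (11.3) and MMP8 (10.6).

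**Figure D2:**
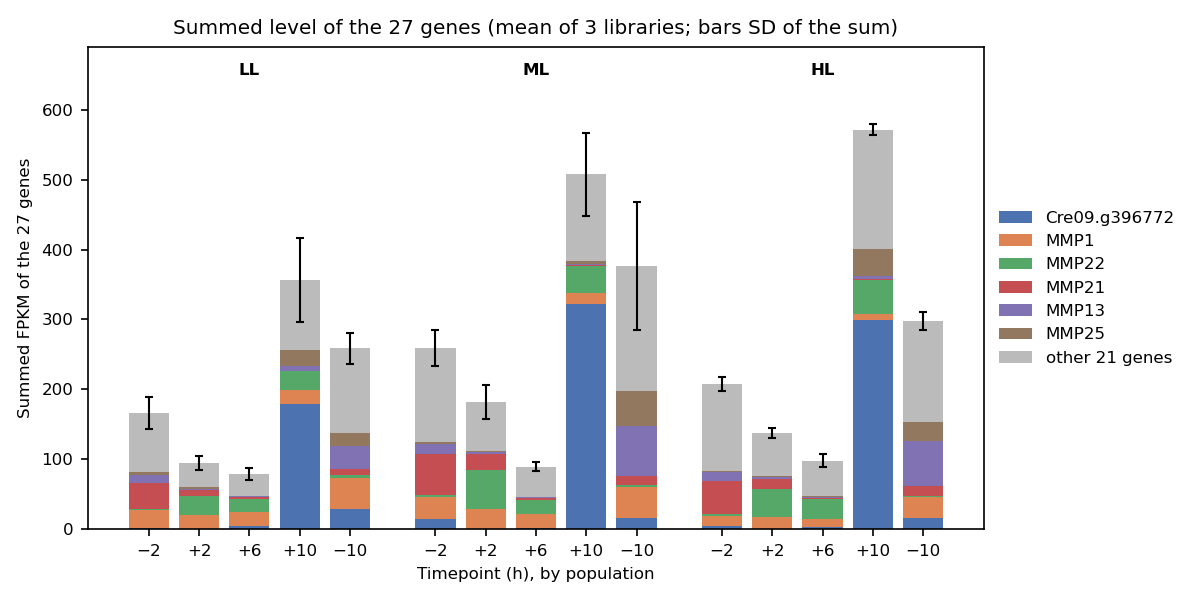
Summed FPKM of the 27 genes at each timepoint in LL, ML and HL, as stacked bars of the means of 3 libraries for the leading genes and the rest, with error bars for the SD of the sum. The bars are highest at +10 (357 FPKM in LL, 508 in ML, 572 in HL), where Cre09.g396772 makes up at least 50.4% of each.

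To see which of these genes differed between the acclimated populations, the LL population and the HL population were set against ML hour by hour. A gene was called increased or decreased where its log2 fold change on the log2(FPKM + 1) scale was beyond 1 in size with an adjusted p below 0.01 over all genes tested (limma, 1 fit of the 15 groups). The added 1 understates the change of genes with low values, so ratios of mean FPKM are given beside it. Of the 25 tested members 12 were called in at least 1 of the 10 comparisons and 13 in none, where 22% of all genes tested were called at least in 1. LL gave 20 of the 25 calls, 16 of them decreases, over 11 members, and HL gave 5 calls over 5 members. Over all genes LL gave 3524 of 5457 calls, 1438 of them decreases, and 17.6% of genes were called in LL and 11% in HL. In all 25 calls the ranges of the 3 LL or HL libraries and the 3 ML libraries did not overlap. The share of such calls over all genes was not counted, and the thresholds for a call themselves favour separate ranges, so this adds no support. The p-values measure the spread between experimental replicates collected weeks apart, and the LL and HL comparisons share the ML libraries. Libraries of 1 replicate number at the 5 timepoints may come from 1 culture. The main fit treats them as independent, so agreement over timepoints is not that of separate replicates.

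Decreases prevailed in LL through the night and the morning. At −2 in LL 5 members decreased (Cre09.g396772, MMP4, MMP7, MMP29 and MMP32) and 0 increased, where 1.33% of all tested genes decreased and 1.62% increased. With each timepoint fitted alone, 1 of these 5 calls was left, that of MMP4, and the background fell to 29 genes decreased and 126 increased from 194 and 236. At +2 in LL 5 decreased (MMP4, MMP5, MMP7, MMP19 and MMP21) and 0 increased, against 3.23% and 4.28% of all genes. At +6 in LL MMP5 and MMP19 decreased and Cre09.g396772 increased, against 1.92% and 1.97% of all genes. The direction turned at +10, where MMP13, MMP25 and MMP33 increased and 0 decreased, against 3.57% of all genes increased and 1.38% decreased. At −10 those 3 genes and MMP19 decreased and 0 increased, against 2% of all genes decreased and 2.85% increased. The median log2 fold change of the 25 members in LL was −0.36 at −2, −0.21 at +2, −0.13 at +6, −0.14 at +10 and −0.27 at −10, while that of all genes lay between −0.05 and 0.03.

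In HL the calls lay at +10 and −10 alone. At +10 MMP13, MMP20, MMP25 and MMP33 increased and 0 decreased, against 3.24% of all genes increased and 0.438% decreased. At −10 MMP29 decreased and 0 increased, against 0.294% of all genes decreased and 0.781% increased. No member was called at −2 (background 0.233% increased and 0.274% decreased), at +2 (4.51% and 1.46%) or at +6 (1.37% and 0.644%). With libraries scaled to a common median, the background counts in HL were 537 genes increased and 347 decreased at +2 (658 and 213 as deposited) and 148 and 146 at +6 (200 and 94). At an unadjusted p under 0.05, whatever the size of the change, 8, 8 and 9 of the 25 members passed the limma test at these 3 timepoints, where 12.2%, 45.6% and 32.9% of all genes did. The median log2 fold change of the members in HL was −0.19 at −2, 0.02 at +2, 0.11 at +6, 0.24 at +10 and −0.23 at −10.

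**Figure D3:**
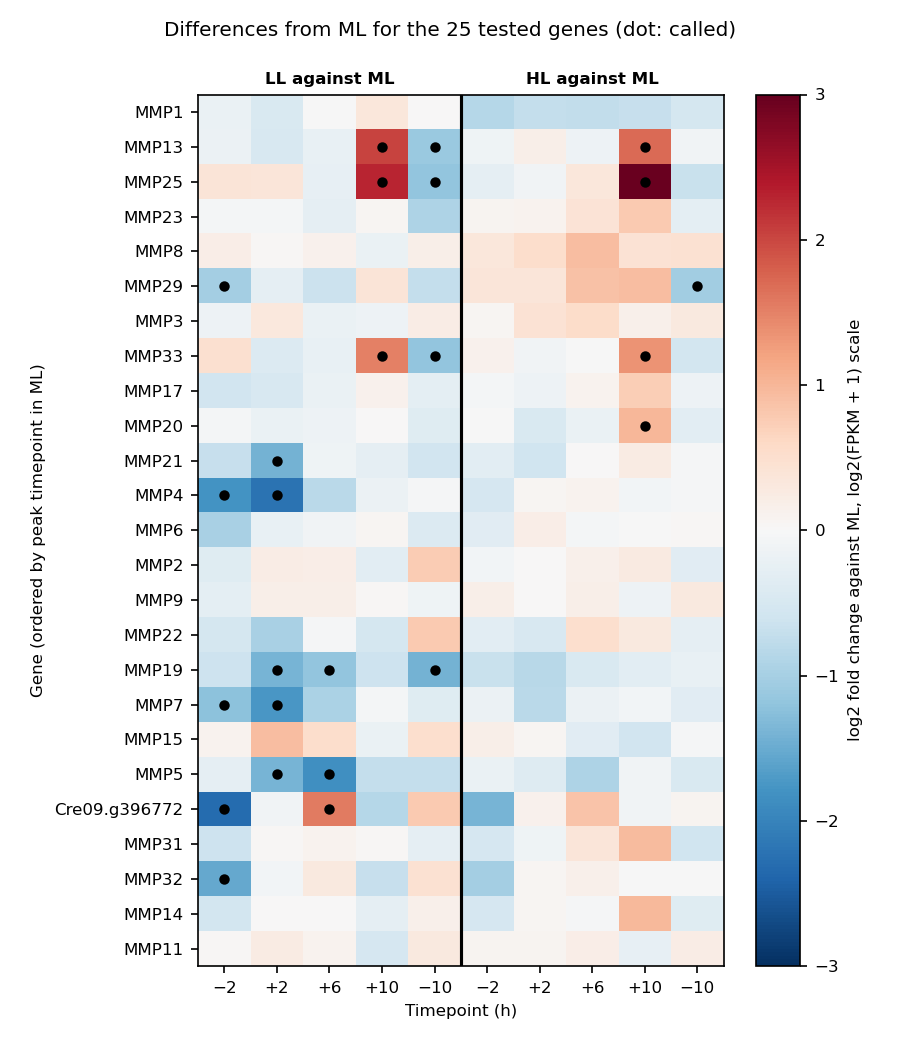
Log2 fold change of LL and of HL against ML at each timepoint for the 25 tested genes, on the log2(FPKM + 1) scale, with a dot where the difference was called. LL carries 20 dots, 16 of them on decreases, and HL carries 5, of which 4 lie at +10.

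MMP1, gametolysin itself, was measured in every library and was not called in any comparison. In ML it was highest at −10, at 35.1, 38.6 and 59.9 FPKM in replicates 1, 2 and 3, and lowest at +10, at 11.8, 11.8 and 22.6 FPKM. LL libraries held 50.1, 42.5 and 40.0 FPKM at −10 and 18.9, 18.6 and 19.6 FPKM at +10, which overlapped ML. HL libraries held 27.9, 29.1 and 32.1 FPKM at −10 and 7.98, 7.08 and 11.5 FPKM at +10. All of these HL values are below all ML values of the timepoint.

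The same separation of HL from ML was found for MMP1 at −2 (14.8, 14.6 and 17.0 FPKM in HL, 22.1, 22.9 and 47.8 in ML), at +2 (14.8, 16.7 and 16.2 in HL, 20.0, 22.1 and 41.6 in ML) and at +6 (10.6, 11.4 and 13.0 in HL, 16.5, 14.3 and 33.2 in ML). Every HL library was thus below every ML library at each of the 5 timepoints, a pattern shown by 0.199% of all genes tested (29 of 14602). The log2 fold changes of HL against ML were −0.87, −0.70, −0.73, −0.70 and −0.53 at −2, +2, +6, +10 and −10, each ± 0.27 (SE), with adjusted p of 0.0791, 0.034, 0.0452, 0.0407 and 0.214 by limma. Part of the distance rested on ML replicate 3, which was 1.55 to 2.09 times the higher of the other two ML libraries at every timepoint. Without that replicate the log2 fold changes were −0.51, −0.39, −0.38, −0.41 and −0.30.

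**Figure D4:**
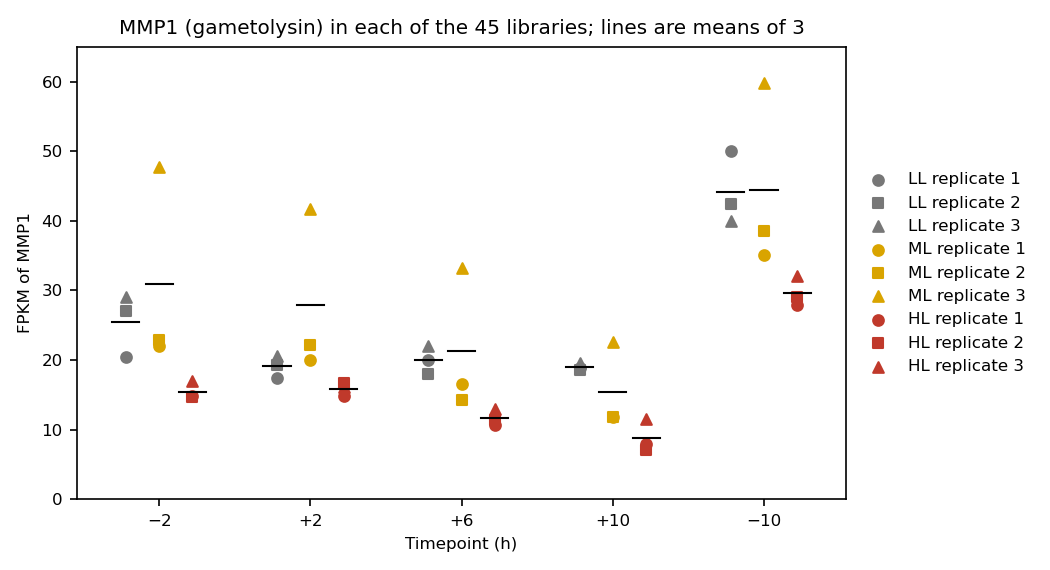
FPKM of MMP1 in each of the 45 libraries by timepoint, with colours for LL, ML and HL, a marker shape for each replicate and lines through the means of 3. HL points lie below all ML points at each timepoint, and ML replicate 3 lies above the other two ML libraries throughout, at 59.9 FPKM against 38.6 and 35.1 at −10.

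Of the VMP family, 7 of 8 genes were tested and 3 were called, all as decreases in LL at −2, +2 or +6, beside the 22% of all genes called in any comparison. MMP4 (Cre01.g025200) had its highest level before dawn. At −2 it measured 29.5, 36.1 and 28.1 FPKM in ML, 20.3, 18.7 and 27 FPKM in HL and 7.95, 5.26 and 12.9 FPKM in LL. In the morning, at +2, its level was 15.2, 19.2 and 24.3 FPKM in ML, 19.2, 17.3 and 23.6 FPKM in HL and 2.18, 2.80 and 5.78 FPKM in LL. The LL libraries were the lowest at both hours, and ML and HL overlapped at +2. Its mean in ML was 3.58-fold that in LL at −2 (log2 fold change −1.80 ± 0.22, SE, adjusted p = 2.14e-07) and 5.45-fold at +2 (−2.22 ± 0.22, adjusted p = 3.72e-10). By −10 the mRNA was at or under 0.197 FPKM in all populations.

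MMP7 (Cre07.g353600) followed in the morning. Its +2 levels were 7.65, 8.44 and 8.64 FPKM in ML, 4.60, 4.46 and 3.73 FPKM in HL and 2.05, 1.2 and 2.13 FPKM in LL. The 3 populations did not overlap there, with HL between LL and ML. ML was 4.6-fold LL at +2 (−1.74 ± 0.16, adjusted p = 5.05e-11) and 3.98-fold at −2 (−1.23 ± 0.16, adjusted p = 5.56e-07), where LL held 0.350, 0.994 and 1.15 FPKM and ML 3.15, 4.43 and 2.35.

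MMP5 (Cre11.g467756) was a daytime mRNA of low level. At +6 it measured 2.01, 3.82 and 4 FPKM in ML, 0.619, 0.594 and 3.14 FPKM in HL and 0.126, 0.0158 and 0.392 FPKM in LL. The +2 libraries held 1.18, 2.59 and 3.02 FPKM in ML and 0.0831, 0.141 and 0.400 FPKM in LL. LL was below ML in every library at both hours, while HL spread from near the LL values to within the ML range. The ratio of means, ML over LL, was 18.4 at +6 (−1.84 ± 0.28, adjusted p = 4.65e-06) and 10.9 at +2 (−1.39 ± 0.28, adjusted p = 0.000127).

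MMP8 (Cre03.g201552), the most abundant of the VMP genes, was the one member with every HL library above every ML library at all 5 timepoints. At +6 it measured 4.43, 5.21 and 5.37 FPKM in HL, 2.31, 2.09 and 2.12 FPKM in ML and 2.41, 2.4 and 2.55 FPKM in LL. The log2 fold change in HL was 0.33 at −2, 0.54 at +2, 0.92 at +6, 0.44 at +10 and 0.46 at −10 (SE 0.12 each), with adjusted p of 0.16, 0.000411, 4.87e-07, 0.00437 and 0.00716. None was beyond 1, so none was called, although the mean at +6 was 2.30-fold ML and with a pseudocount of 0.1 the change there was 1.16 and a call. Every HL library above every ML library at each timepoint was found for 0.137% of all genes tested. Its cycle was much larger than this difference, from 2.17 ± 0.120 FPKM at +6 to 18.0 ± 3.07 at −10 in ML (SD, n = 3).

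The remaining VMP genes were not called. MMP6, chosen here after its values were seen, was a night mRNA, at 12.7, 13.5 and 12.9 FPKM at −2 in ML, 10.0, 10.3 and 9.95 in HL and 7.03, 4.44 and 7.34 in LL, and at most 0.187 FPKM at +6. MMP9 ran from 0.261 to 3.21 FPKM and MMP11 from 0.309 to 1.9 FPKM over all libraries.

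Among the genes described as matrix metalloproteinases, MMP13 (Cre03.g144564), MMP25 (Cre10.g421350) and MMP33 (Cre17.g708450) shared a pattern. All 3 were increased at +10 in both LL and HL and decreased at −10 in LL. Before dusk, at +10, MMP13 measured 0.663, 1.34 and 0.283 FPKM in ML, 5.64, 5.24 and 7.01 FPKM in LL and 4.73, 3.42 and 5.62 FPKM in HL. After dusk, at −10, it stood at 69.3, 63.1 and 78.9 FPKM in ML, 38.4, 29.3 and 28.1 FPKM in LL and 70.6, 62.5 and 62.5 FPKM in HL. ML was thus the lowest population before dusk, and after dusk LL was the lowest while HL overlapped ML. The log2 fold change at +10 was 2.02 ± 0.16 in LL (7.82-fold by means, adjusted p = 3.98e-12) and 1.69 ± 0.16 in HL (6.03-fold, adjusted p = 9.27e-10), and at −10 it was −1.12 ± 0.16 in LL (adjusted p = 7.45e-07).

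MMP33 showed the same order at lower levels. Its +10 values were 0.153, 0.299 and 0.123 FPKM in ML, 2.25, 1.84 and 3.33 FPKM in LL and 2.50, 1.15 and 2.76 FPKM in HL. LL and HL overlapped there and both lay above ML, by 1.52 ± 0.20 in LL (12.9-fold by means, adjusted p = 2.01e-07) and 1.36 ± 0.20 in HL (11.2-fold, adjusted p = 2.75e-06). At −10 it measured 33.3, 30.7 and 53.3 FPKM in ML, 21.9, 14.7 and 13.3 FPKM in LL and 24.7, 26.9 and 25.7 FPKM in HL, with a decrease in LL of −1.17 ± 0.20 (adjusted p = 1.94e-05). Without ML replicate 3 at −10 this change was −0.93 (adjusted p = 0.000791) and no longer a call.

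MMP25 was highest in HL before dusk. Its +10 values were 41.0, 33.8 and 39.1 FPKM in HL, 22.1, 22.6 and 25 FPKM in LL and 4.72, 8.53 and 1.25 FPKM in ML, with no overlap between the 3 populations. Against ML it was 7.85-fold higher in HL (2.97 ± 0.33, adjusted p = 2.76e-08) and 4.8-fold higher in LL (2.28 ± 0.33, adjusted p = 1.27e-06). At −10 it measured 33.9, 27.8 and 88.5 FPKM in ML, 18.0, 16.3 and 21.8 FPKM in LL and 25.3, 26.8 and 29.3 FPKM in HL. Replicate 3 of ML was far above the rest, and the decrease in LL of −1.19 ± 0.33 (adjusted p = 0.0055) became −0.69 (adjusted p = 0.117) without it. The adjusted p of that decrease was 0.0169 without LL replicate 1 and 0.0279 without LL replicate 2. By means, the highest timepoint of MMP25 was −10 in ML and +10 in LL and HL.

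Beside the +10 increases of these 3 genes, the summed division markers were 1867 to 2076 FPKM in ML, 834 to 1284 in LL and 1737 to 1849 in HL, with 7 of the 12 markers decreased in LL and 0 called in HL. The summed gamete markers at +10, given above, were highest in ML. The paper attributes the larger number of mRNA changes in LL at least in part to lower synchrony of that population. It reasoned that changes found in both LL and HL likely reflect productivity or synchrony. The part of any of these in the metalloproteinase result was not tested.

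**Figure D5:**
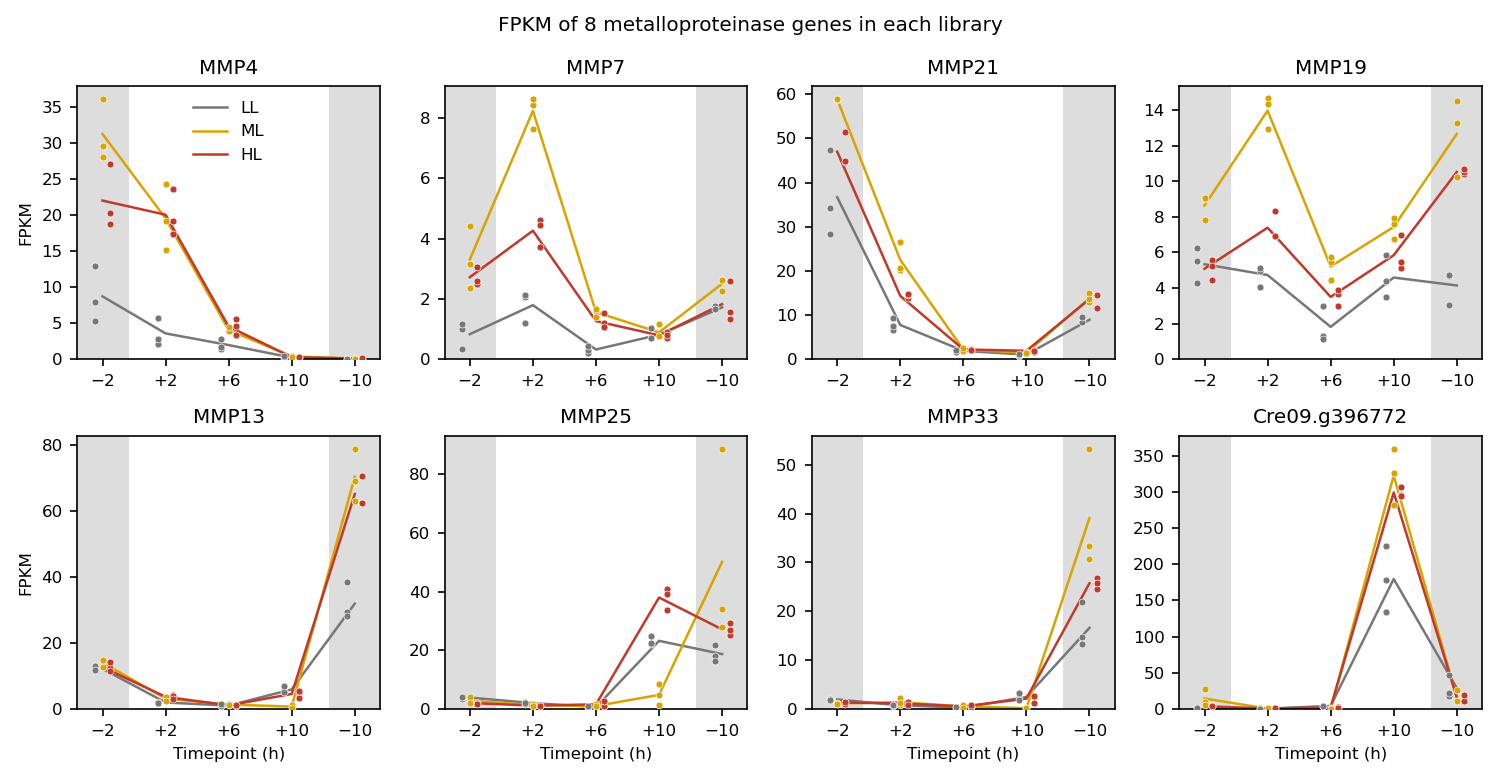
FPKM of 8 called genes in each library (points) and the mean of 3 (lines) over the 5 timepoints in LL, ML and HL, with a vertical axis of its own for each gene. LL points of MMP4 and MMP7 lie below ML at −2 and +2, whereas MMP13, MMP25 and MMP33 lie above ML in both LL and HL at +10 and are lowest in LL at −10.

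MMP29 (Cre13.g605200) was a night mRNA, decreased at −2 in LL and at −10 in HL. Late in the night, at −2, its level was 14.3, 19.2 and 11.3 FPKM in ML, 18.2, 17.0 and 22 FPKM in HL and 6.61, 5.42 and 8.28 FPKM in LL. Early in the night, at −10, it stood at 22.5, 29.0 and 28.8 FPKM in ML, 18.7, 15.7 and 13.6 FPKM in LL and 10.7, 13.5 and 13.2 FPKM in HL. LL was thus lowest late in the night and HL lowest early in the night. By day HL was above ML without a call, by 0.88 at +6 (2.37-fold by means, limma adjusted p = 0.00516). At +10 it was above by 0.92 (4.91-fold, adjusted p = 0.00238), at low means of 1.48 FPKM in HL and 0.301 in ML. The decrease was −1.02 ± 0.23 in LL at −2 (adjusted p = 0.00164) and −1.04 ± 0.23 in HL at −10 (adjusted p = 0.00184), both near the limit of 1. The first was −0.83 without ML replicate 2 and −0.89 without LL replicate 2 at −2, and the second −0.98 and −0.99 without ML replicate 2 or 3 at −10 and −0.94 without HL replicate 1 at −10, none of which is a call.

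MMP23 (Cre07.g333400) was highest at −10 in all 3 populations and was not called. At −10 it measured 26.8, 23.8 and 40.8 FPKM in ML, 25, 23.6 and 23.2 FPKM in HL and 15.9, 14.4 and 15.5 FPKM in LL. The LL libraries were the lowest (−0.92, adjusted p = 3.56e-07). At +10 HL was the highest, at 16.2 ± 0.98 FPKM against 9 ± 0.616 in ML (0.78, adjusted p = 7.29e-06).

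MMP21, MMP19 and MMP22 had their highest means in ML at −2 or +2. MMP21 (Cre06.g292050) fell from 58.7, 58.9 and 58.9 FPKM at −2 in ML to 20.2, 20.6 and 26.6 FPKM at +2. In LL it held 34.3, 28.5 and 47.3 FPKM at −2 and 6.61, 7.44 and 9.23 FPKM at +2, and in HL 44.6, 51.4 and 44.9 FPKM at −2 and 13.8, 14.5 and 14.7 FPKM at +2. ML was the highest at both hours, and at +2 it was 2.9-fold LL (−1.42 ± 0.13, adjusted p = 2.33e-11).

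MMP19 (Cre03.g170850), like MMP5, was below every ML library in every LL library at all 5 timepoints, which held for 0.418% of all genes tested. The values at +2 were 12.9, 14.7 and 14.3 FPKM in ML, 8.31, 6.93 and 6.92 FPKM in HL and 4.97, 4.07 and 5.15 FPKM in LL. At −10 they were 14.5, 13.3 and 10.2 FPKM in ML, 10.4, 10.5 and 10.7 FPKM in HL and 4.66, 3.04 and 4.73 FPKM in LL. HL thus lay between the other two at +2 and overlapped ML at −10. The decrease in LL was a call at +2 (−1.39 ± 0.17, adjusted p = 3.95e-08), at +6 (−1.19 ± 0.17, adjusted p = 1.72e-06) and at −10 (−1.41 ± 0.17, adjusted p = 5.56e-08), and was −0.61 at both −2 and +10 (adjusted p = 0.00949 and 0.00447).

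MMP22 (Cre07.g324500), the second most abundant MMP symbol after MMP1, had peaks in the morning and before dusk. Its morning values at +2 were 51.5, 58.6 and 59.4 FPKM in ML, 37.5, 37.4 and 45.2 FPKM in HL and 25, 27.2 and 32.9 FPKM in LL. The populations did not overlap, and the LL difference of −0.98 (adjusted p = 0.000541) lay just inside the limit of 1. By +10 the order was HL (48.0 ± 1.55 FPKM), ML (39.2 ± 5.36) and LL (27.2 ± 6.48), and in the night all libraries were at or under 5.81 FPKM.

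Cre09.g396772 gave the largest single level of the family. Late-day libraries at +10 held 359, 327 and 282 FPKM in ML, 296, 306 and 295 FPKM in HL and 226, 179 and 135 FPKM in LL. LL was the lowest there, by less than the limit for a call. At +6 it was still low, at 4.49, 3.93 and 4.76 FPKM in LL, 2.22, 2.46 and 2.16 FPKM in HL and 0.885, 1.14 and 0.477 FPKM in ML, and LL was 5.26-fold ML (1.57 ± 0.34, adjusted p = 0.000412). At −2 it measured 9.85, 28.1 and 5.78 FPKM in ML, 4.06, 3.82 and 3.84 FPKM in HL and 2.80, 1.2 and 1.07 FPKM in LL, with ML 8.64-fold LL (−2.32 ± 0.34, adjusted p = 3.97e-06). Without ML replicate 2 at −2, the highest of these libraries, the change was −1.73 and still a call.

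The order of the libraries for Cre09.g396772 was often that of the division markers. At −2 these markers summed to 74.6, 178 and 56.8 FPKM in ML replicates 1, 2 and 3 and to 26.2, 26.2 and 22.6 FPKM in LL, with 9 of 12 decreased in LL. At +6 they summed to 170, 181 and 123 FPKM in ML and 296, 272 and 213 FPKM in LL, with 5 increased. Their part in the result was not tested.

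MMP32 (Cre14.g625850) followed Cre09.g396772 closely. Its values at +10 were 51.3, 46.1 and 39.3 FPKM in ML, 42.6, 45.3 and 47.1 FPKM in HL and 33.8, 30.3 and 20.4 FPKM in LL. At −2 it measured 2.06, 5.34 and 1.06 FPKM in ML, 0.671, 0.751 and 0.602 FPKM in HL and 0.0821, 0.235 and 0.226 FPKM in LL. ML was 15.6-fold LL at −2 (−1.54 ± 0.27, adjusted p = 9.2e-05), and −1.09 on the log2 scale without ML replicate 2. Over the 15 groups Pearson's r between the log2(mean FPKM + 1) of MMP32 and Cre09.g396772 was 0.991, and that between MMP32 and MMP14 was 0.984. These pairs were chosen for their likeness, and the means they share come from the same libraries.

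MMP14 and MMP31, also chosen after their values were seen, had that late-day peak but a different order of populations. MMP31 measured 46.1, 45.9 and 46.0 FPKM in HL at +10, 26.5, 27.9 and 17.3 FPKM in ML and 27.2, 25 and 20.8 FPKM in LL (0.95 in HL, adjusted p = 0.0116). MMP14 measured 23.9, 22.8 and 25.6 FPKM in HL, 16.4, 16.2 and 6.04 FPKM in ML and 12.4, 9.63 and 7.50 FPKM in LL (0.97 in HL, adjusted p = 0.00336). HL stood above both other populations for each gene, without a call. MMP20 (Cre03.g201550), at a lower level, was called: 2.28, 2.4 and 3.04 FPKM in HL, 0.667, 1.13 and 0.582 FPKM in ML and 0.748, 0.722 and 0.876 FPKM in LL, or 3.25-fold ML in HL (1.00 ± 0.18, adjusted p = 3.4e-05). Its change lay at the limit of 1, and was 0.96 and 0.92 without ML replicate 1 or 3 at +10 and 0.91 without HL replicate 3, none of them a call.

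The rest of the family moved with the time of day and was not called, although some members differed from ML by less than the limit. MMP2 peaked at −2 (12.2, 12.5 and 10.1 FPKM in ML) and MMP15 at +6 (4.97, 4.78 and 2.62 FPKM in ML), both chosen after their values were seen. MMP3 ran from 2.41 to 12.3 FPKM and MMP17 from 1.32 to 9.63 FPKM over all libraries. By limma the log2 fold change was 0.76 for MMP2 in LL at −10 (adjusted p = 6.33e-07). It was 0.93 for MMP15 in LL at +2 (adjusted p = 0.000298), at means of 1.14 FPKM in LL and 0.119 in ML. For MMP17 in HL at +10 it was 0.73 (adjusted p = 0.00119). These were picked after their values were seen, and other differences of these genes went in both directions. In the RefSeq annotation of the Chlamydomonas_reinhardtii_v5.5 assembly, to which all 27 genes matched by locus tag, MMP1 and MMP2 lie with 1 gene between them and MMP7 and MMP10 with 2. Reads shared between similar copies of such a family may have been split by the authors' quantification, which makes levels of single members uncertain to that extent.

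Whether a difference from ML depended on the hour was tested directly. The LL effect differed between timepoints for 17 of 25 members (limma interaction F test, adjusted p below 0.01), against 56.5% of all genes tested, and the HL effect for 12 of 25, against 41.5%. MMP13, MMP25 and MMP33 passed the interaction test in both LL and HL, and so did Cre09.g396772, MMP2, MMP21, MMP23 and MMP29. In LL 8 members did not pass, MMP1 and MMP8 among them, and in HL MMP1, MMP8, MMP4 and MMP7 were among the 13 that did not.

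Genes of the cell wall, listed by name and description, gave their largest counts at the same hour as MMP13, MMP25 and MMP33. Of 62 tested pherophorins, wall and extracellular matrix glycoproteins, 29 increased and 1 decreased in LL at +10 (median log2 fold change 0.65) and 28 increased and 2 decreased in HL at +10 (0.88), where 3.57% and 3.24% of all genes increased. At −10 in LL 14 pherophorins decreased and 3 increased (−0.44). PHC2, the most abundant of them, changed by 1.80 ± 0.12 in LL at +10 (adjusted p = 5.33e-14) and by −1.18 ± 0.12 at −10 (adjusted p = 6.91e-10). PHC3 increased by 2.48 ± 0.12 in LL at +10 (adjusted p = 6.07e-17) and PHC31 by 3.14 ± 0.44 in HL at +10 (adjusted p = 1.08e-06). PHC31 was also called in LL at +10 (2.17 ± 0.44), whereas PHC2 and PHC3 were not called in HL at +10 (0.65 and −0.08). In the other 7 comparisons at most 7 pherophorins increased and at most 6 decreased.

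Of 24 other tested wall glycoproteins, 7 increased in LL and 8 in HL at +10 with 0 decreased, and at most 3 were called in either direction at any other hour. Cre10.g463350, a hydroxyproline-rich protein, increased by 1.80 ± 0.17 in LL and 2.71 ± 0.17 in HL at +10 (adjusted p = 2.29e-10 and 1.27e-13), and CWP2 decreased by −1.10 ± 0.18 in HL at −10 (adjusted p = 3.39e-05). Of 22 tested prolyl 4-hydroxylases, which make the hydroxyproline of these proteins, at most 2 were called in any comparison. PFH3 accounted for a call in HL at +2 (2.95 ± 0.31, adjusted p = 2.12e-09), in HL at +6 (−1.64 ± 0.31, adjusted p = 0.000184) and in LL at +10 (1.49 ± 0.31, adjusted p = 0.000233). Of 9 tested subtilisin-like proteases 1 increased at +10 in LL and 1 in HL.

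VLE1, the hatching enzyme, was not called in any of the 10 comparisons. In ML it stood at 80.6 ± 5.14 FPKM at −10 and 82.4 ± 4.10 at −2 against 11.7 ± 1.44 at +6 (SD, n = 3). At +10, still in the light, it stood at 112 ± 4.31 FPKM in HL, 66.8 ± 25.2 in ML and 64.5 ± 10.0 in LL. Its level in ML was thus above that of +6 before dusk. The log2 fold change at +10 was 0.81 ± 0.16 in HL (adjusted p = 0.000117).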

How the data were processed

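Polyadenylated RNA of 45 libraries (15 groups of 3) was sequenced by the authors as 50 nt reads, aligned with STAR 2.4.0j and quantified with Cuffdiff 2.0.2 with strand, on the v6.1 genome of strain CC-4532. The deposited values used here are FPKM per gene and library, computed by the authors. They keep no read totals, so precision at low values is known only through relative depth. A table of group means was not used, and 0 columns of per-sample values were left without a sample.

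Groups followed the labels. All 14602 genes with at least 1 FPKM in 3 or more libraries were fitted on log2(FPKM + 1) with limma 3.58.1 (R 4.3.3; eBayes with trend), 1 coefficient per group, with Benjamini-Hochberg adjustment within each comparison. The study's own tests used read counts, which are not analysed here. Calls needed a log2 fold change beyond 1 and an adjusted p below 0.01. The code was tested on simulated data. Summaries used Python 3.11.15, numpy 2.4.6, pandas 2.3.3 and scipy 1.17.1.

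The members and gene lists were chosen with earlier results of these data known. Named with values were all called members, the 8 of highest mean FPKM, MMP1 and up to 3 of highest mean in each related list; others are marked as chosen after their values were seen. Alternatives covered the pseudocount (0.1), the filter (mean of 5 FPKM), the threshold (0.05), median scaling, separate timepoints, a replicate block, a block for each population and replicate number, and left-out libraries. No sequence is shown, since no sequence table or genome of this build was used here.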

Additional observations from a re-analysis of the deposited data

Results flagged for a closer look

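The difference between LL and ML varied with the timepoint for 13 of the named genes (limma interaction F test, Benjamini-Hochberg adjusted). Of all genes tested, 56.5% passed that test at an adjusted p below 0.01. The named genes include every called member. They were picked in part for a light difference at some hour, so the count adds no support. The adjusted p was 1.08e-12 for MMP13, 9.09e-09 for MMP33 and 2.78e-06 for MMP25, the genes that were above ML at +10 and below it at −10. It was 1.18e-07 for Cre09.g396772 and 0.000167 for MMP32, of the late-day peak. The dawn and daytime genes gave 2.03e-07 for MMP4, 3.93e-07 for MMP7, 1.24e-06 for MMP21, 0.000129 for MMP22, 0.00353 for MMP19 and 0.00619 for MMP5, and the night genes 6.11e-05 for MMP23 and 0.00348 for MMP29.

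The difference between HL and ML varied with the timepoint for 8 of the named genes, with the same limit. Of all genes tested, 41.5% passed. The adjusted p was 2.57e-08 for MMP13, 4.35e-07 for MMP25, 1.64e-05 for MMP33, 4.85e-05 for MMP20 and 5.81e-05 for MMP23, each highest above ML at +10. It was 2.88e-05 for MMP29, 0.00142 for MMP21 and 0.00298 for Cre09.g396772. With 3 libraries a group, single libraries were not tested as outliers.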

How the results depend on the processing

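Directions were followed for the 25 calls and for MMP1 in HL, and none turned under any alternative run. The calls were beyond 1 in size from the start, which makes this a weak check. Of 430 values for these changes and for the peak tallies by median, 404 kept their side of the threshold or stayed within 1.5 times. The same held for 273 of 295 counts. Fitting each timepoint alone left 1 decrease in LL at −2 in place of 5, that of MMP4 (29 in place of 194 over all genes); the adjusted p became 0.0229 for Cre09.g396772, 0.0146 for MMP7, 0.0291 for MMP32 and 0.0212 for MMP29, and 0.0361 for MMP25 in LL at −10. A pseudocount of 0.1 gave 3 calls in HL at +6 in place of 0 (MMP8, Cre09.g396772 and MMP29, all increases), where all genes went from 200 increased and 94 decreased to 562 and 119, and 0 in HL at −10 in place of 1, and median scaling gave 1 decrease, of MMP5, in HL at +6. That pseudocount also ended the calls of MMP29 and MMP25 in LL at −2 and −10 (adjusted p = 0.0164 and 0.0356), and median scaling put MMP20 in HL at +10 at 0.93. A mean of at least 5 FPKM, which tests fewer genes, gave 3 calls in LL at +2, 15 genes with a time effect in each population and 11 with an LL effect that differed by hour. An adjusted p below 0.05 gave 2 calls in HL at −2. By medians 2 members, not 1, peaked at +6 in HL.

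Leaving out single libraries gave 4 to 6 calls in LL at −2, 5 to 6 at +2, 3 to 5 at +6 (5 without LL replicate 3), 3 at +10 and 3 to 5 at −10. In HL it gave 0 to 2 at −2 (2 without ML replicate 3), 0 at +2, 0 to 1 at +6 (1 without ML replicate 1 or 2 or HL replicate 2 or 3), 3 to 5 at +10 and 0 to 1 at −10 (0 without ML replicate 2 or 3 or HL replicate 1). The count of members whose HL effect differed by hour ran from 7 (without ML replicate 2 at −2) to 14, and that in LL from 15 to 18. Without ML replicate 3 at all timepoints, an alternative chosen after seeing the data, HL gave 2, 0, 0, 3 and 0 calls.

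With a replicate block all 15 counts were the same as without it, 5, 5, 3, 3 and 4 in LL and 0, 0, 0, 4 and 1 in HL. Same-numbered libraries of a timepoint correlated at −0.0581 to 0.329 in their deviations (median 0.0412, 12 of 45 pairs over 0.1). Differently numbered libraries of a timepoint and other population correlated at −0.318 to 0.225 (median −0.0222, 5 of 90 pairs over 0.1). Within a population, same-numbered libraries of different timepoints correlated at −0.3 to 0.225 (median 0.0333, 16 of 90 pairs over 0.1). Differently numbered ones correlated at −0.306 to 0.378 (median −0.0151, 13 of 180 pairs over 0.1). With a block for each population and replicate number, 8124 genes passed the LL interaction test and 5895 the HL test, from 8247 and 6055. Same-numbered libraries were thus somewhat more alike, although the main fit did not take the numbers to pair samples.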
